A study of Mus musculus with 2 samples.

Results

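The windows of 3 genes of the octamer pathway were examined for binding of TCF12: Pou2f1, which encodes OCT1, Pou2f2, which encodes OCT2, and Pou2af1, which encodes their coactivator OCA-B. Each window ran from 10 kb upstream of the gene's 5' end to its 3' end on the mm10 build, and held every peak whose summit lay inside it. Of the 35848 peaks of the authors' optimal list, filtered by the irreproducible discovery rate (IDR), 26 (0.0725%) lay in these windows. There were 6 at Pou2f1, 16 at Pou2f2 and 4 at Pou2af1.

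TCF12, or HEB, is an E protein that binds E-boxes, DNA motifs of the form CANNTG. DNA bound by it was recovered with an antibody and sequenced (ChIP-seq). The cells were CH12.LX, an immortal line of a B-cell lymphoma from a mouse of the strain B10.H-2aH-4bp/Wts. There was 1 group, with 2 biological replicates of the same line and no treatment, so conditions could not be compared and no test between groups was made. The labels name a single line for both replicates, so their spread is that between preparations of 1 line. No transcript level was used here, so the cell type was not checked against marker genes.

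The octamer, ATGCAAAT, is a motif of immunoglobulin promoters and enhancers. OCT1 and OCT2 bind it through a POU domain, a paired DNA-binding fold. OCT1 is made in most cells, while OCT2 is largely a B cell and neural factor. OCA-B, also called OBF-1 or BOB.1, joins either factor on DNA and is needed for germinal centres to form.

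Sequences of 5 peaks are shown first: the 4 peaks with a CAGCTG or CACCTG E-box near the summit and, beside them, the strongest peak with neither. They were chosen for that contrast and not by signal alone. They come from the authors' separate mm9 list, which places 11 peaks in these genes. The other 6 hold neither E-box, among them the Pou2f2 promoter peak, whose mm9 signal of 161 is above those of 2 of the peaks shown, and which meets an exon and is not printed. The sequences were read from the mm9 genome as 101 bases centred on each summit, on the strand of the gene. Capitals mark CAGCTG and CACCTG, or CAGGTG, the reverse complement of the latter. The first pair lies in introns of Pou2f2, at chr7:25891933-25892033 and chr7:25911038-25911138 on the minus strand. The next lies upstream of Pou2af1 at chr9:51021277-51021377 and in its intron at chr9:51034003-51034103, both on the plus strand. The last, which holds neither E-box, is the other strong intronic peak of Pou2f2, at chr7:25914757-25914857 on the minus strand.

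Pou2f2 intron, 25.5 kb from the start: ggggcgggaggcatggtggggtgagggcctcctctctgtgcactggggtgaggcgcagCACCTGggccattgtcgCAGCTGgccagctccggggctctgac
Pou2f2 intron, 6.39 kb from the start: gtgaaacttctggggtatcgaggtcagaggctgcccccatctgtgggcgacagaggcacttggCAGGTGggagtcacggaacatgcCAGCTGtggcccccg
Pou2af1 upstream of the start: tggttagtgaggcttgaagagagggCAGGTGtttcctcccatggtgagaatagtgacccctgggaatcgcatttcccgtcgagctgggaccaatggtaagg
Pou2af1 intron, 12.3 kb from the start: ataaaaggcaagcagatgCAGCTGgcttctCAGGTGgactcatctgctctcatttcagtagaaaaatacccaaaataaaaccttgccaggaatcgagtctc
Pou2f2 intron, 2.67 kb from the start: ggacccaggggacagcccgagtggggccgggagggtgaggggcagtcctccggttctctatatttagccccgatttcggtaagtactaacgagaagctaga

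Peak signal is the authors' own value from their peak caller, with no stated scaling, and serves here for description and for ranks inside each list. Over all optimal peaks it ran from 5.57 to 496, with a median of 35.0. Read depth is unknown, and the control reads that entered the peak calls were not analysed here. Relaxed lists hold the peaks called before the IDR filter. Of the 35848 optimal peaks, 34817 overlapped a relaxed peak in both replicates. The optimal list is thus not limited to peaks found in each replicate, and its IDR score is not read here as their agreement. Signal was higher in replicate 1 at 85.7% of the 34817 optimal peaks found in both replicates. The ratio of replicate 1 to replicate 2 had a median of 1.66 and quartiles of 1.21 and 2.34, so a ratio above 1 was usual in these lists.

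All 3 members carried an optimal peak, as did 57.2% of the 20923 protein-coding genes with a usable strand (11967 genes), so a peak in the window was common among genes. With as many of the strongest peaks of a single replicate, all 3 again held a summit, as did 58.2% of genes in replicate 1 and 58.1% in replicate 2. The members differed in number. Pou2f2 had 16 peaks in a window of 103 kb, and 84 genes (0.401%) had at least as many. Pou2f1 had 6 in 148 kb, a number reached by 4.98% of genes, and Pou2af1 had 4 in 36.4 kb, reached by 11.3%. The count at Pou2f1 was 10 from replicate 2 alone and 7 from replicate 1 alone. That at Pou2af1 was 2 at an IDR of 0.01 or less or from 5 kb upstream, and 1 in the gene body. Long windows hold more peaks, so the density was also ranked. It was 1.55 peaks per 10 kb at Pou2f2, reached by 6.57% of genes, 1.10 at Pou2af1, reached by 12.1%, and 0.407 at Pou2f1, reached by 35.2%, against a median over genes of 0.172. In summed signal, 0.296% of genes reached Pou2f2's 955, 4.08% reached Pou2af1's 310 and 6.89% reached Pou2f1's 232.

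**Figure D1:**
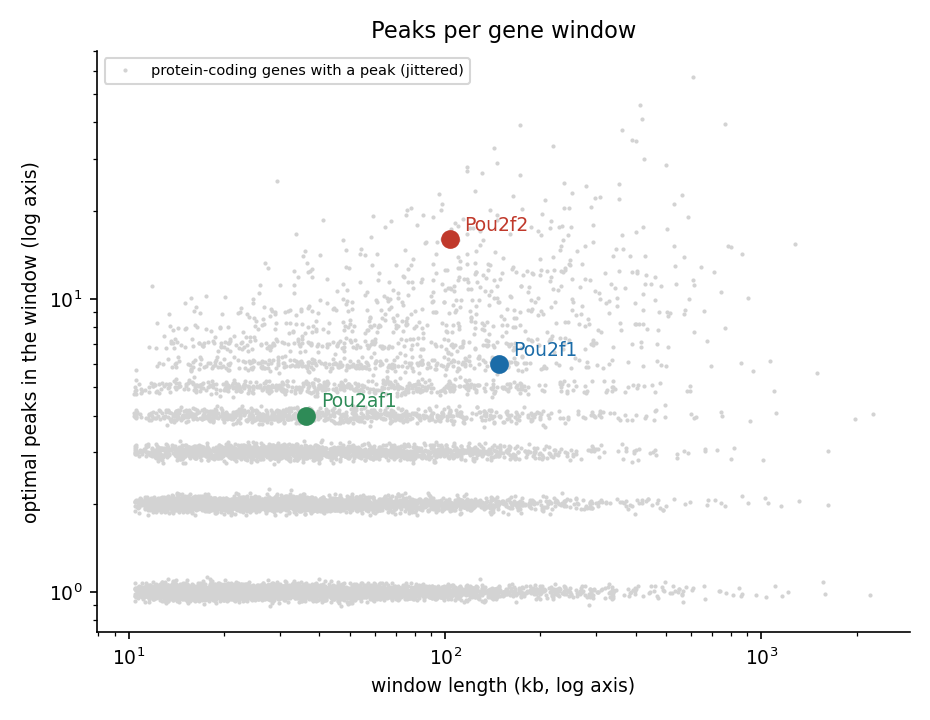
Optimal peaks in each gene's window against the window's length in kb, both on log axes. Grey points are the 11967 protein-coding genes with a peak, with a small vertical jitter. Coloured points are Pou2f2 with 16 peaks, Pou2f1 with 6 and Pou2af1 with 4. Their standing among genes of like length was not ranked.

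Pou2f2, the gene of the B cell octamer factor, had the strongest peak of the 3 genes in the pooled list and in replicate 1. In replicate 2 the strongest member peak was that of Pou2af1, at 74.6 (rank 636), with the best of Pou2f2 at 74.1 (rank 644). Introns and exons here are those of the mm9 annotation at the matching mm9 peak. The strongest pooled peak lay in an intron 25.5 kb downstream of the listed promoter start, at chr7:25106861-25107055 on mm10, with a pooled signal of 174. Its signal was 101 in replicate 1, rank 857 of 300000 relaxed peaks, and 68.4 in replicate 2, rank 828. It stood high in both replicates, and 2.04% of optimal peaks were stronger. Of the sequences above, the first is the mm9 summit at the same distance from the same promoter sequence.

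A second intronic peak of Pou2f2 was nearly as strong. It lay 2.68 kb from the start, at chr7:25129627-25129883, with a pooled signal of 170, from 99.0 in replicate 1 and 74.1 in replicate 2. Another strong peak covered the promoter itself, at chr7:25132349-25132521, with its summit 18 bp upstream of the start and a pooled signal of 121. The replicates gave 88.1 and 34.3 there, with summits 6 bp and 26 bp upstream. The ratio of replicate 1 to replicate 2 was 2.57 at the promoter peak, above the upper quartile of all peaks, and 1.48 and 1.33 at the intronic peaks.

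The other 13 peaks of Pou2f2 had pooled signals from 7.77 to 78.7. The stronger of them lay 6.39 kb (78.7), 1.71 kb (75.2), 11.8 kb (60.4) and 19.3 kb (50.4) downstream of the start. The peak at 6.39 kb went against the usual direction, with 27.6 in replicate 1 and 47.2 in replicate 2, and was the most tilted to replicate 2 of all member peaks (ratio 0.584). The peak 9.60 kb downstream was the most tilted to replicate 1 at this gene, with 18.97 against 5.28. A peak 819 bp upstream of the start had a pooled signal of 36.6. All 16 summits fell within 27.3 kb, from 819 bp upstream of the start to 26.4 kb downstream, with a median gap of 1291 bp between neighbours.

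The RefSeq span of Pou2f2 reaches 48.3 kb further upstream than its listed promoter start, to 25180797. Of the 16 summits 3 lay upstream of the listed start, all within 819 bp of it, and none lay in the rest of that stretch. The window holds the same count of 16 if it is drawn from the listed start. By the listed starts of all genes, the nearest start to each of the 26 peaks was that of the member itself. The span of Cd247, the T cell receptor zeta chain gene, with 4 peaks in its own window, meets the Pou2f1 window. By RefSeq 5' ends, 11 of the 16 Pou2f2 peaks were nearest to Grik5, a kainate receptor subunit gene with 2 peaks in its own window.

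Pou2af1, the coactivator gene, had the fewest peaks of the 3 members, though only 11.3% of genes had at least as many. Of its 4 peaks, 2 were among the strong ones. The strongest lay in an intron 12.3 kb downstream of the start, at chr9:51225891-51226026, with a pooled signal of 156, from 80.0 in replicate 1 and 74.6 in replicate 2. The ratio was 1.07, the closest to 1 at this gene. The other lay 459 bp upstream of the start, at chr9:51213129-51213296, with a pooled signal of 125, from 85.3 in replicate 1 and 36.7 in replicate 2. Optimal peaks stronger than these made up 2.91% and 5.26%. The remaining peaks of the gene, 7816 bp and 7594 bp upstream, overlapped each other and were weak, with pooled signals of 18.6 and 10.8. The strongest relaxed peak over either of that pair was 13.7 in replicate 1 and 9.45 in replicate 2.

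Pou2f1, the gene of the widely made factor, had peaks of middling or low strength only. The strongest had a pooled signal of 59.3, and 24.5% of optimal peaks were stronger. It lay at chr1:165934844-165935227, with its summit 88 bp upstream of an internal promoter start, 67.8 kb inside the RefSeq span. The replicates gave 30.4 and 27.2. The next, of 50.3, lay 1.29 kb downstream of the first start, with 40.8 in replicate 1 and 9.94 in replicate 2. At a ratio of 4.10 it was the least even of all member peaks.

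The other Pou2f1 peaks had pooled signals of 44.7, 33.5, 27.6 and 16.5. The peak of 44.7, which lay 1.97 kb downstream of the internal start, had 22.2 in replicate 1 and 26.4 in replicate 2. The peak of 16.5, the last in the direction of the gene, had 6.71 and 10.4, the lowest signal of any member peak in replicate 1. At the first start of Pou2f1 no optimal peak lay within 1 kb. The strongest relaxed peak there was 680 bp upstream with 8.36 in replicate 1, rank 62786, and 644 bp upstream with 17.8 in replicate 2, rank 13249. The replicates differed here: the value of replicate 2 was above its own values at 4 of the 6 optimal peaks of Pou2f1, and that of replicate 1 above its own at 1 of the 6. At the remaining listed start, 49.7 kb inside the RefSeq span, the relaxed list of replicate 1 held no peak within 1 kb and that of replicate 2 held 1, with a signal of 4.20.

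**Figure D2:**
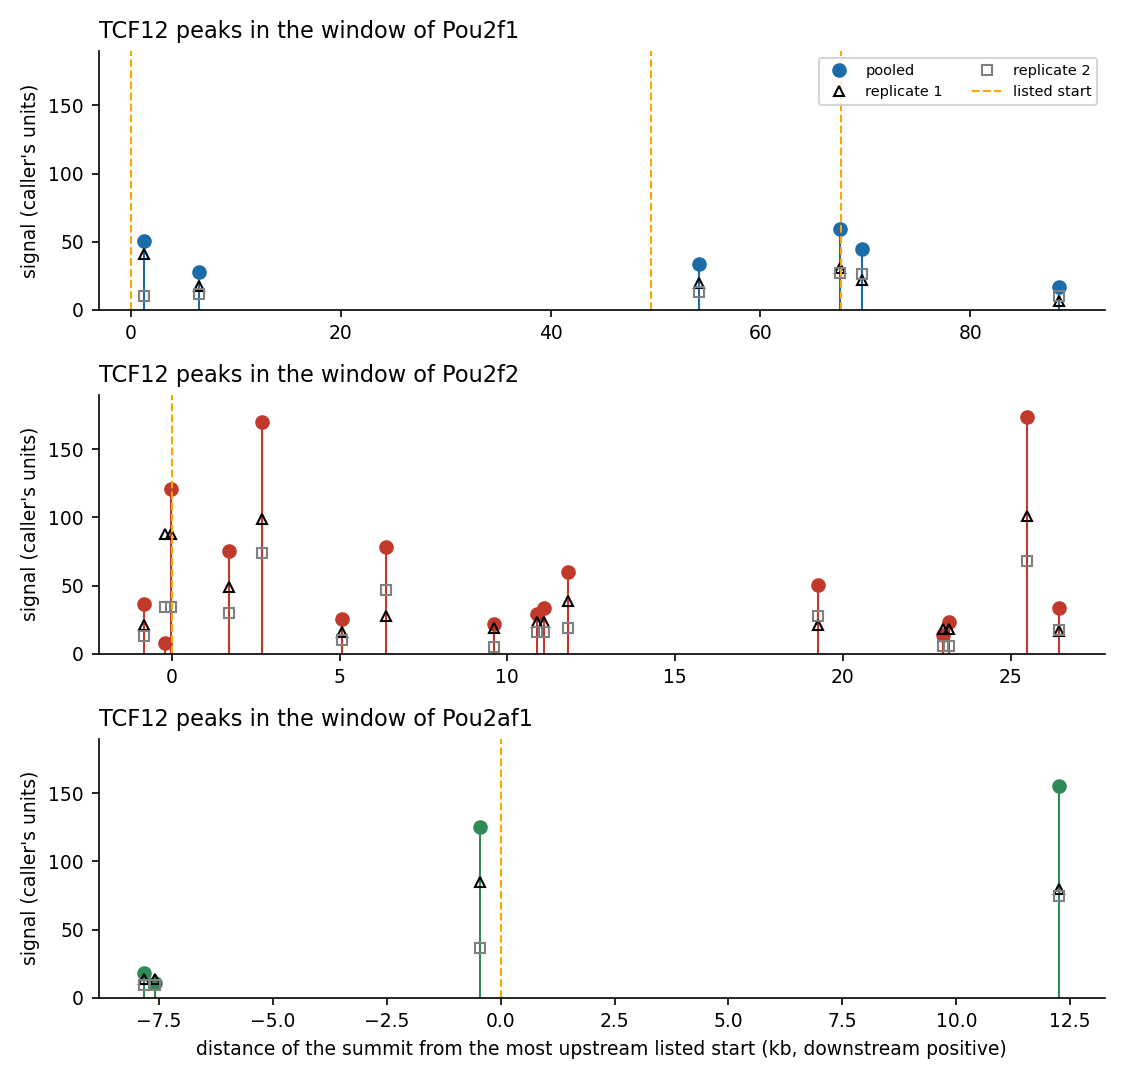
Signal of each optimal peak (filled circle, pooled) and of the matching relaxed peak in replicate 1 (triangle) and replicate 2 (square), against the distance of the summit in kb from the gene's most upstream listed start; dashed lines are listed starts. Pou2f2 carries 16 peaks within 27.3 kb, Pou2af1 a peak of 125 before its start and of 156 inside, and Pou2f1 none above 59.3.

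The internal promoter of Pou2f1 is the only listed start of that gene with an optimal summit in its upstream 250 bases. Those bases are printed here on the minus strand, chr1:165934949-165935198 on mm10, with every CANNTG in capitals, as RefSeq's promoter table for GRCm38.p6 gives them.

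Pou2f1 internal promoter: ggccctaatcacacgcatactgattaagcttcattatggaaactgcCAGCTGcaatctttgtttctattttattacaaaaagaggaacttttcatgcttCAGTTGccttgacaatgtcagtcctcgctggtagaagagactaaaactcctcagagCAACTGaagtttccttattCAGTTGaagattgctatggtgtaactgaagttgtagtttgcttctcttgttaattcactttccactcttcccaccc

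The stretch held 4 E-boxes. CAGCTG began 204 bases before the start, and CAGTTG or its reverse complement CAACTG began 151, 95 and 76 bases before it. The latter pair lay on either side of the pooled summit, 88 bp upstream of the start. The strongest relaxed summit there was 86 bp upstream in replicate 2 but 186 bp upstream in replicate 1, outside that pair. Searched on both strands over all 300 bases of each entry, CAGCTG was present in 16.3% of the 32851 promoters of the table and any CANNTG in 72.3%. Of the 5 listed promoters of the 3 genes, none held CACCTG (20.2% of all promoters) or the octamer ATGCAAAT (1.74%). The ETS site CCGGAAGT was found at Pou2f2 (3.89% of all), beginning 71 bases before the start, in the promoter with the strong peak. That promoter also held the RUNX site TGTGGT (16.8% of all) and the SP/KLF site GGGCGG (35.7%), the latter also found at the first start of Pou2f1.

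The replicates are set side by side at the member peaks in the scatter of replicate signal. Because 8 of the 26 peaks overlap a neighbour in 4 pairs, and the members of a pair share the replicates' peaks, they form 22 separate loci. Replicate 1 was higher at 17 of the 22, with a median ratio of 1.48 and a range from 0.584 to 4.10, inside the spread of all optimal peaks, whose 5th and 95th percentiles were 0.730 and 4.23, at all but 2 loci. Those exceptions were the peak 6.39 kb into Pou2f2 and the last peak of Pou2f1 (0.647). Over loci the signal in replicate 1 ran from 6.71 to 101 with a median of 22.8, and in replicate 2 from 5.28 to 74.6 with a median of 18.2.

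**Figure D3:**
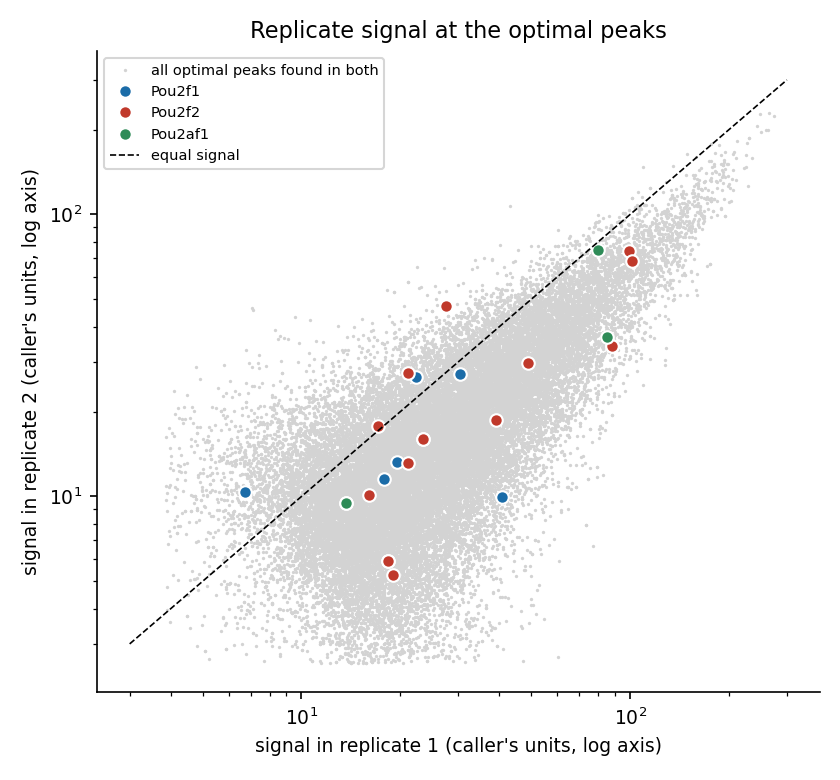
Signal in replicate 1 against replicate 2 at each optimal peak found in both, on log axes, in the caller's units; the dashed line marks equal signal. Member peaks (coloured) lie within the grey cloud of 34817 peaks, and 17 of the 22 member loci lie below the line, on the side of replicate 1.

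Most member peaks were also in the authors' conservative list, which was filtered from the same relaxed peaks, so that overlap is no independent repeat. Of the 26, 24 overlapped a peak of the conservative list, against 83.6% of all optimal peaks. The highest IDR score of 1000 was held by 17, against 53.9% of all. Among the 17 was a peak of Pou2f2 with a signal of 7.77, which shares the replicates' peaks of a stronger neighbour. Each relaxed list holds 300000 peaks, so the windows held more of these by the size of the lists. There were 48 and 44 in replicates 1 and 2 at Pou2f1, 48 and 49 at Pou2f2, and 11 and 15 at Pou2af1. Relaxed peaks were at least as dense in 23.6% and 24.8% of genes for Pou2f1. That share was 10.5% and 8.05% for Pou2f2, and 26.8% and 12.0% for Pou2af1. Relaxed peaks that overlap no optimal peak had median signals from 5.72 to 6.71 in replicate 1 and from 3.89 to 4.25 in replicate 2. By rank, 1 to 4 of them per gene and replicate lay among the strongest 35848 of that replicate. The best ranked in replicate 1 lay at Pou2f2 (21.3, rank 19961) and in replicate 2 at Pou2f1 (17.8, rank 13249), the peak near the first start.

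Of the 11 mm9 peaks, 8 lay at Pou2f2, 2 at Pou2af1 and 1 at Pou2f1. Distances were measured from the same promoter sequence, listed on mm10 and found once on its chromosome in mm9. By these, each mm9 peak had an mm10 partner whose summit was 0 to 20 bp away. The 15 mm10 peaks with no mm9 partner had pooled signals up to 59.3, including the peak at the internal start of Pou2f1. On either strand and within 50 bp of the summit, 4 of the 11 held CAGCTG or CACCTG, against 31.0% of the 23572 mm9 peaks on chromosomes 1 to 19 and X (95% Wilson interval 30.4% to 31.6%), so that share was close to the background.

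Peaks with both E-boxes made up 3 of the 11, against 3.61% (3.38 to 3.86) of all mm9 peaks. They were the intronic peaks of Pou2f2 at 25.5 kb and 6.39 kb and that of Pou2af1 at 12.3 kb. Peaks of 1 gene share their source and no test was made, so nothing particular to these genes is read from that count. The E-boxes of a pair began 17 bp apart in the first, at 25891953 and 25891970, 23 bp apart in the next, at 25911047 and 25911070, and 12 bp apart at Pou2af1, at 51034021 and 51034033. Within 25 bp of the summit 0 of the 11 held both, against 1.16% of all. The peaks at 6.39 kb in Pou2f2 and 12.3 kb in Pou2af1 held 4 E-boxes of any CANNTG form each, and 1.54% of all mm9 peaks held 4 or more. At Pou2af1 the further E-boxes were CAGATG and CATCTG.

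The upstream peak of Pou2af1 held 1 E-box, the reverse complement of CACCTG, 25 bases before the summit at 51021302 to 51021307. The strong intronic peak of Pou2f2 at 2.67 kb, with an mm9 signal of 227, held none of the 12 motifs searched. The promoter peak of Pou2f2, in an exon outside the coding part, held a CAGTTG and an SP/KLF site GGGCGG. SP/KLF sites lay in 4 of the 11 peaks, all at Pou2f2, against 15.5% of all. The Pou2f1 peak 1.29 kb from the start held no E-box and a RUNX site TGTGGT beginning 1 base after the summit, a motif in 11.4% of all peaks. An AP-1 site TGANTCA lay in 1 peak, at 11.8 kb in Pou2f2. None of the 11 held the octamer ATGCAAAT, present in 2.25% of all mm9 peaks, nor the PU.1 type site GAGGAAGT, the ETS site CCGGAAGT or the CREB site TGACGTCA. The EBF1 motif, TCCC and GGGA with any 2 bases between, and the NF-kappaB motif, GGGA and TTCC likewise, were also at 0 of 11. These 5 lay in 1.02% to 3.13% of all peaks. Within 100 bp of the summit, 1 of the 11 held the ETS site, against 4.13% of all. An E-box match counts under both its own letters and CANNTG.

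**Figure D4:**
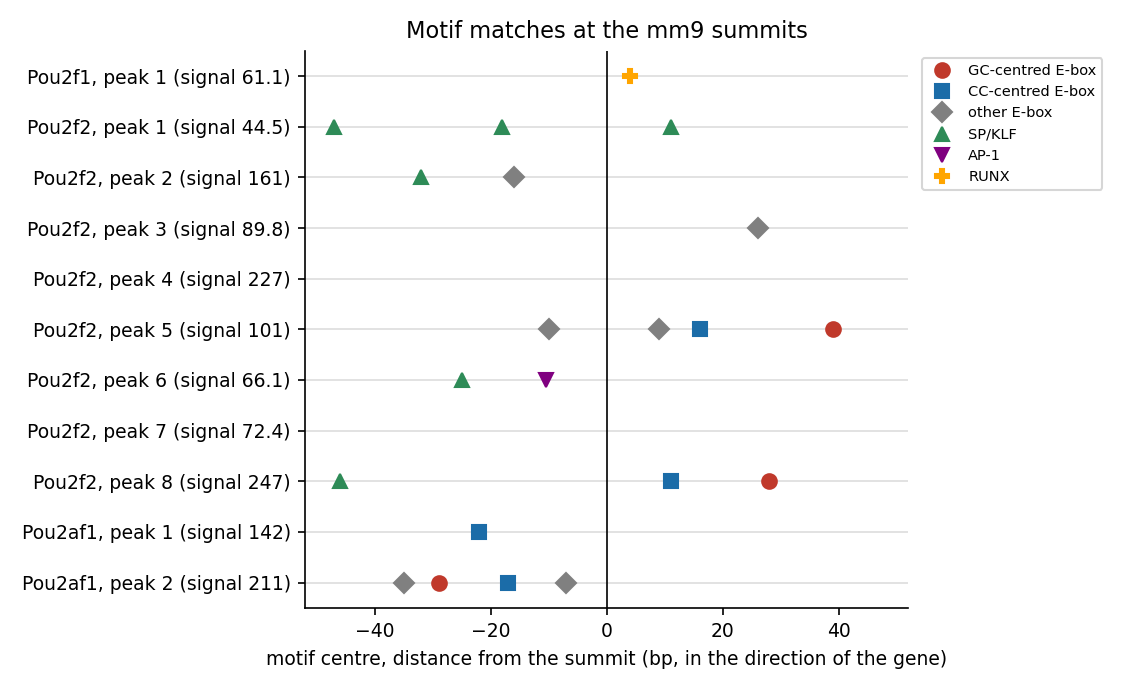
Motif matches within 50 bp of the summit of the 11 mm9 peaks, by distance of the motif's centre from the summit in bp in the direction of the gene; peaks are numbered in that direction and given with their mm9 signal. E-boxes with GC or CC at their centre (the latter on either strand) lie at 4 peaks, and 2 peaks of Pou2f2, of 227 and 72.4, hold no match.

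Genes related to the members were set beside the 57.2% of all genes with an optimal peak. Of 13 other POU genes, most of them factors of neurons, pituitary or germ cells, 2 carried a peak. Pou4f1, a sensory neuron factor, had 1 with a signal of 50.8, and Pou6f1 had 4 of up to 35.0. Pou2f3, the third gene of the OCT class and a tuft cell factor, had none, nor had Pou5f1, which encodes OCT4, Pou1f1 or Pou3f1. The share was 15.4% (Wilson interval 4.33 to 42.2), and Pou2f1 and Pou2f2 exceeded both genes in their strongest signal.

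Of 11 genes for partners of the factors, 9 were matched and 8 of them carried a peak (88.9%, 56.5 to 98.0). The strongest signal, 292, lay 43 bp upstream of Gtf2b, the general factor TFIIB, from 172 in replicate 1 and 122 in replicate 2. Subunits of the snRNA-activating complex, which OCT1 helps to recruit, had 124 at Snapc5, 92.3 at Snapc4 and 66.6 at Snapc2, and Snapc3 had no peak. Tbp, the TATA-binding protein, had 97.7 at 1.55 kb upstream.

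Of 9 genes reported to depend on OCT2 or OCA-B or to have octamer sites in B cells, 8 carried a peak (88.9%, 56.5 to 98.0). Cd79b, which encodes the Ig-beta signalling chain, reached 209 at 7 bp upstream of its 5' end, and Cxcr5, the chemokine receptor of follicular B cells, reached 186 at 60 bp upstream. Spib, which encodes an ETS factor, held 9 peaks of up to 182, Cd36 had 113 and Btk, the B cell receptor kinase, 98.4. Crisp3 had no peak. The weakest of the 8 strongest peaks had a signal of 18.0, and 87.1% of optimal peaks were stronger. In gene bodies alone 4 of the 9 matched partner genes kept a peak and 6 of these 9 genes did, against 43.7% of all genes. The partner share was thus close to that of all genes once upstream peaks were left out. The intervals cover counting error only, and the lists are described without a test.

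**Figure D5:**
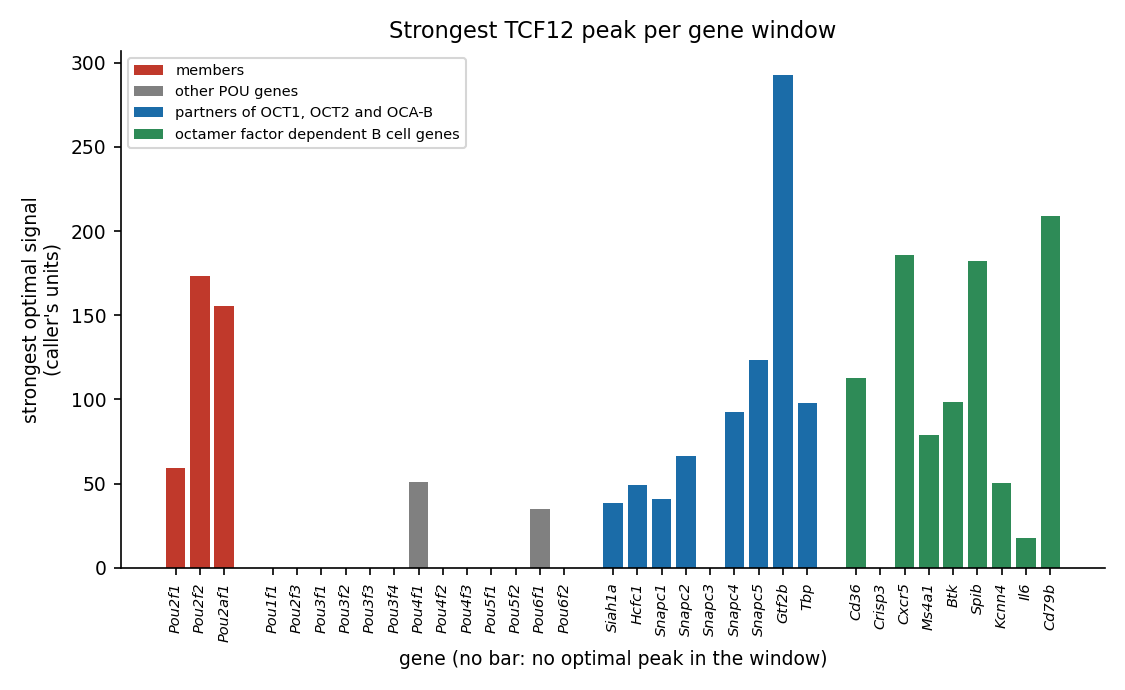
Strongest optimal signal in each gene's window, in the caller's units, for the 3 members and the related genes that were matched; genes with no bar had no optimal peak. Pou2f2 at 174 and Pou2af1 at 156 lie below Gtf2b at 292, Cd79b at 209, Cxcr5 at 186 and Spib at 182.

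By window length, number of peaks, strongest signal and summed signal together, over 11967 genes with a peak, the genes most like Pou2f2 were Vmp1, Ankrd33b and Rnf157, at distances of 0.195, 0.251 and 0.267 SD units. They had 16, 15 and 15 peaks with strongest signals of 178, 170 and 170. Most like Pou2f1 were Arhgap22, Aim2 and Kif1b (0.180, 0.248 and 0.279), and most like Pou2af1 were Ube2v1, Adssl1 and Tnfsf15 (0.217, 0.217 and 0.222).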

How the data were processed

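TCF12 ChIP-seq peaks from 2 replicates of 1 group were used. Per the file descriptions deposited with the samples, the authors called relaxed peaks on each replicate with a control and on both pooled, all on mm10. They then filtered these by IDR into the optimal and the conservative list, and made the mm9 list from the reads of both replicates aligned to that build. The aligner and peak caller were not given in the sources used here. Peak signal and the scaled IDR score are the authors' deposited values, with no stated scaling. Scores from 830 up stand for an IDR of 0.01 or below. The files give no read depth, and Wilson intervals cover counting error only.

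Windows came from RefSeq spans of GRCm38.p6. Strand came from RefSeq's promoter table, or from GENCODE vM1 by symbol where it had no entry, for 20923 of 21631 protein-coding genes (96.7%). The replicate value at a peak is the strongest relaxed peak overlapping it by at least 1 bp. Exons and sequence at summits came from NCBIM37, and no coordinate was converted between builds. Of 33 related genes 31 were matched by symbol. The members, gene lists, motifs and alternatives were chosen with earlier results of these data known. Named were all members, the genes most like them by z-scored Euclidean distance, genes with the nearest 5' end to a member summit, and in each list up to 5 genes with the strongest peak and up to 4 without. Cd247, whose span meets a member window, was added after its values were seen. Python 3.11.15, pandas 2.3.3 and scipy 1.17.1 were used, and the counting was tested on simulated data.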

Additional observations from a re-analysis of the deposited data

How the results depend on the processing

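Of 83 alternative values over 16 results, 73 stayed within the limit set for their kind and 10 did not, and no direction was at stake, as no test was made. The limit was 1.5 times for counts and for the share of genes with a peak. For the share of peaks stronger than a member's strongest it was the SD of the values from each replicate alone. Those values were then judged by it too, and it is wider where replicates differ, so that part of the tally says little. For the replicate ratio the limit was the SD over peaks, a wide 0.916, but the median was 1.48 at every setting. The count at Pou2af1 depended on the window and on the list. It was 2 at an IDR of 0.01 or less and 2 from 5 kb upstream, which lose the weak overlapping pair, and 1 in the gene body alone, which loses the upstream peaks by construction. With a single replicate, as many of its strongest peaks as the optimal list holds gave 7 and 10 summits at Pou2f1 (replicate 1 and replicate 2), 19 and 14 at Pou2f2, and 5 and 6 at Pou2af1, and the strongest peak of Pou2f1 was exceeded by 19.6% to 21.4% of peaks. At an IDR of 0.01 or less, 36.1% of peaks exceeded the strongest of Pou2f1, 3.01% that of Pou2f2 and 4.29% that of Pou2af1, since weak peaks leave the list. The value for Pou2af1 stayed within its limit, which was wide because replicates 1 and 2 alone gave 3.94% and 1.77%. In gene bodies alone, 4 of the 9 matched partner genes kept a peak, close to the share of all genes with one, 43.7%. With motifs sought within 25 bp of the summit, 0 of the 11 mm9 peaks held both CAGCTG and CACCTG. The listed start as the 5' end and the count of each locus once were added after the data were seen. No paired analysis was possible because there is only 1 group. Read depth is unknown, so it cannot be said which weak peaks deeper sequencing would add.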

Other observations

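In the windows, 4 pairs of optimal peaks overlapped each other, 3 at Pou2f2 and 1 at Pou2af1, so 8 of the 26 peaks (30.8%) overlapped a neighbour. Over the whole optimal list 22.0% did (7902 peaks). At the Pou2f2 promoter the weaker peak of a pair, 217 bp upstream of the start, had a pooled signal of 7.77, exceeded by 97.7% of optimal peaks, yet it carried the highest IDR score of 1000. It overlapped the same replicate peaks, of 88.1 and 34.3, as its stronger neighbour of 121. Among the 4001 optimal peaks that overlap a stronger one, 1236 (30.9%) had that highest score.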
